A study of Mus musculus with 36 samples.

Results

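Osm, Il6, Il23a and Il27 are 4 cytokine genes whose levels were followed in mouse eosinophils, granulocytes of blood and mucosal tissues. They were chosen by name, as rows of the 2 deposited tables of transcript abundance, with earlier results of these tables known. Osm, Il6 and Il27 had rows among the 9844 genes of the tissue table, and all 4 had rows among the 8001 genes of the sorted table. Tissue levels of Il23a were not analysed here. All rows passed the filter on low values, and Osm was above 0 in all 24 tissue libraries and all 11 sorted libraries. Il6 and Il27 were above 0 in 23 tissue and 10 sorted libraries each, and Il23a in 10 sorted libraries.

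The tissue table held total eosinophils of wildtype C57BL/6 mice from lung (3 libraries), skin (3), colon (3), small intestine (4), bone marrow (3), blood (4) and spleen (4). The sorted table held small intestine eosinophils of NMUR1-TdT reporter mice on the same strain, in which the fluorescent protein marks cells that use the gene of a neuromedin U receptor, Nmur1. It had 5 libraries of reporter-positive (Nmur1+) and 6 of reporter-negative (Nmur1-) cells. All mice were 8 to 12 weeks old, untreated, and males and females were pooled, per the labels, which do not say whether replicates were separate animals. A p-value here therefore weighs a difference against library-to-library spread, part of which may be technical. In bulk libraries fewer cells of a type and less RNA per cell cannot be told apart.

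Oncostatin M (Osm), interleukin 6 (Il6) and interleukin 27 belong to a family of cytokines whose receptors share the chain encoded by Il6st. Interleukin 27 is a pair of the protein of Il27 and that of Ebi3, and interleukin 23 is a pair of the protein of Il23a and that of Il12b. These cytokines signal through JAK kinases and STAT factors, with STAT3 prominent for interleukin 6, interleukin 23 and oncostatin M. Their genes are induced in myeloid cells by NF-kappaB, C/EBP and AP-1 factors, and many cytokine messages are kept short-lived by AU-rich elements, repeats of the letters AUUUA in the part of the message after the coding region.

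That stretch of sequence is shown because all 4 genes carried the repeat. Each line gives the 30 bases after the coding region that hold the most copies, from the GENCODE M21 transcript with the longest coding region (mm10, 5′ to 3′ on the gene's own strand), with ATTTA, the DNA form of the repeat, in capitals.
Osm, chr11:4240952-4240981, plus strand: tttataaggcctATTTAtaatgtatATTTA
Il6, chr5:30019691-30019720, plus strand: ATTTAttgataATTTAaataagtaaacttt
Il23a, chr10:128296175-128296204, minus strand: ggttATTTAttctATTTAtaaggaattatg
Il27, chr7:126589087-126589116, minus strand: gatATTTAtttcttggatATTTATTTAttt
Osm, Il6 and Il23a had 6 copies each in 1017, 427 and 657 bases after the coding region, and Il27 had 5 copies in 285 bases. Of 21045 protein-coding genes with such a region, 14.9% had at least 6 copies and 19.1% at least 5, and the median was 1 copy in 799 bases. Per length, Il27 (17.5 copies per kilobase), Il6 (14.1), Il23a (9.13) and Osm (5.90) had a density reached by 0.337%, 0.561%, 1.72% and 5.42% of these genes. A match of letters is a description and not a measured site of decay.

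The sequence before the start of Il6 is shown because the factors named above are background for this gene. Of the 4 genes, 1 matched an entry of the RefSeq promoter table (GRCm38.p6). Capitals mark matches, on either strand, to GGG, any 2 bases, then TTTCC (NF-kappaB), to TGANTCA (AP-1) and to TTGNNCAA (C/EBP), in chr5:30012864-30013113, plus strand.
Il6: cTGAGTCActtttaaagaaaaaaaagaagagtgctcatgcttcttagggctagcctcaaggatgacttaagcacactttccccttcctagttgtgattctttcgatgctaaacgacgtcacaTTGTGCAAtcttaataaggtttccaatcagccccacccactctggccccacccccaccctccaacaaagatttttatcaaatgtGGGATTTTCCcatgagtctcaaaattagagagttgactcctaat
The matches did not overlap each other and began 44 (NF-kappaB), 249 (AP-1) and 128 (C/EBP) bases before the start. In all 32851 promoters of the table, 1.41% held the first of these motifs, 6.75% the second and 5.65% the third within the same 250 bases. The letters TGACGTCA (CRE) and TTCNNNGAA (STAT) were not found in this window, and 1.55% and 7.02% of promoters held them.

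Osm, which encodes a cytokine that acts on stromal, endothelial and epithelial cells, was highest in lung eosinophils and lowest in those of bone marrow, spleen and small intestine. Levels are in TPM, a unit of transcript abundance that corrects for transcript length. Osm (ENSMUSG00000058755.3, chr11:4236420-4241026, plus strand, protein coding) was at 672.95, 709.84 and 708.29 TPM in the 3 lung libraries. It was at 221.86, 316.12 and 473.83 TPM in colon, and at 68.47, 79.8 and 126.48 TPM in skin. Lung, colon and skin thus stood in this order with no overlap between neighbours, and no library of the other 4 tissues reached the lowest skin value. Small intestine libraries had 10.5, 3.02, 20.25 and 8.75 TPM. Blood libraries had 36.22, 36.91, 27.42 and 11.81 TPM, those of spleen 20.64, 8.73, 7.98 and 8.45 TPM, and those of bone marrow 9, 5.76 and 8.25 TPM. Ranges of neighbours in the order blood, spleen, small intestine and bone marrow overlapped, while every blood library was above every bone marrow library. The means were 697 ± 20.9 TPM in lung, 337 ± 127 TPM in colon and 91.6 ± 30.7 TPM in skin (SD, n = 3 each), and 10.6 ± 7.16 TPM in small intestine (SD, n = 4).

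Il6, a cytokine of acute inflammation and of B and T cell help, was also highest in skin, lung and colon, but in another order. Il6 (ENSMUSG00000025746.11, chr5:30013114-30019981, plus strand, protein coding) was at 97.03, 80.22 and 60.55 TPM in skin, at 21.14, 35.76 and 42.46 TPM in lung, and at 14.12, 14.1 and 20.22 TPM in colon. These 3 tissues did not overlap each other or any other tissue. Small intestine libraries had 1.88, 2.61, 8.57 and 12.83 TPM, which overlapped with spleen at 4.81, 0.82, 0 and 5.7 TPM. Bone marrow libraries had 4.52, 2.35 and 1.1 TPM, and blood libraries 0.29, 1.11, 2.61 and 3.62 TPM. Spleen, bone marrow and blood overlapped throughout. The mean was 79.3 ± 18.3 TPM in skin, 33.1 ± 10.9 TPM in lung and 16.1 ± 3.53 TPM in colon (SD, n = 3 each), and 6.47 ± 5.19 TPM in small intestine (SD, n = 4).

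Il27, the partner chain of Ebi3 in a cytokine that restrains T cell inflammation, had its highest mean in small intestine and its lowest in lung. Il27 (ENSMUSG00000044701.5, chr7:126589010-126594941, minus strand, protein coding) was at 10.99, 13.42, 13.27 and 35.52 TPM in the small intestine libraries and at 4.74, 7.82 and 15.36 TPM in skin. The 3 lung libraries, where Osm was highest, had 0, 0.39 and 0.44 TPM. Blood had 2.69, 6.2, 5.01 and 4.32 TPM, colon 2.84, 5.1 and 1.38 TPM, spleen 1.34, 2.91, 0.82 and 0.75 TPM, and bone marrow 0.36, 0.31 and 2.7 TPM. Every pair of neighbours in the order small intestine, skin, blood, colon, spleen, bone marrow and lung overlapped. Small intestine overlapped with no tissue but skin. The small intestine mean was 18.3 ± 11.5 TPM (SD, n = 4), and 1 library, replicate 4, was well above the other 3.

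These 3 genes were chosen with their tissue values known, so their differences between tissues are descriptions with no test. On the log2(TPM + 1) scale, and relative to the median gene of each comparison, the mean of lung, skin, colon and small intestine stood above that of bone marrow, blood and spleen by 3.26 for Osm, 3.10 for Il6 and 1.04 for Il27. The median gene itself differed by -0.15 in this comparison, by -0.57 for lung against the mean of the 6 other tissues and by 0.11 for small intestine against the mean of its 6 others. By the same measure small intestine differed from its 6 others by -2.74 for Osm, -0.85 for Il6 and 2.33 for Il27. Before the shift of the median gene the value for Il6 was -0.74, which became -0.38, -0.49 and -1.14 without small intestine replicates 1, 2 and 4, and that for Il27 was 2.44, which became 1.49 with a pseudocount of 5. Lung differed from its 6 others by 5.10 for Osm, 2.66 for Il6 and -1.40 for Il27. The value for Il27 in lung, -1.97 before the shift, became -3.56 and -0.89 with pseudocounts of 0.1 and 5 and -1.13 with quantile normalization, and that of the first comparison, 0.88 before the shift, became 0.56 with a pseudocount of 5. These comparisons share libraries and are not independent of each other. Every lung library had more Osm than every library of the other tissues, which for all genes tested held, higher or lower, in 7.72%. No other of these 3 genes separated lung, small intestine (6.31% of all genes) or the set of lung, skin, colon and small intestine (3.57% of all genes) from the remaining libraries, and nothing is read from these shares, since the genes were chosen on such values.

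**Figure D1:**
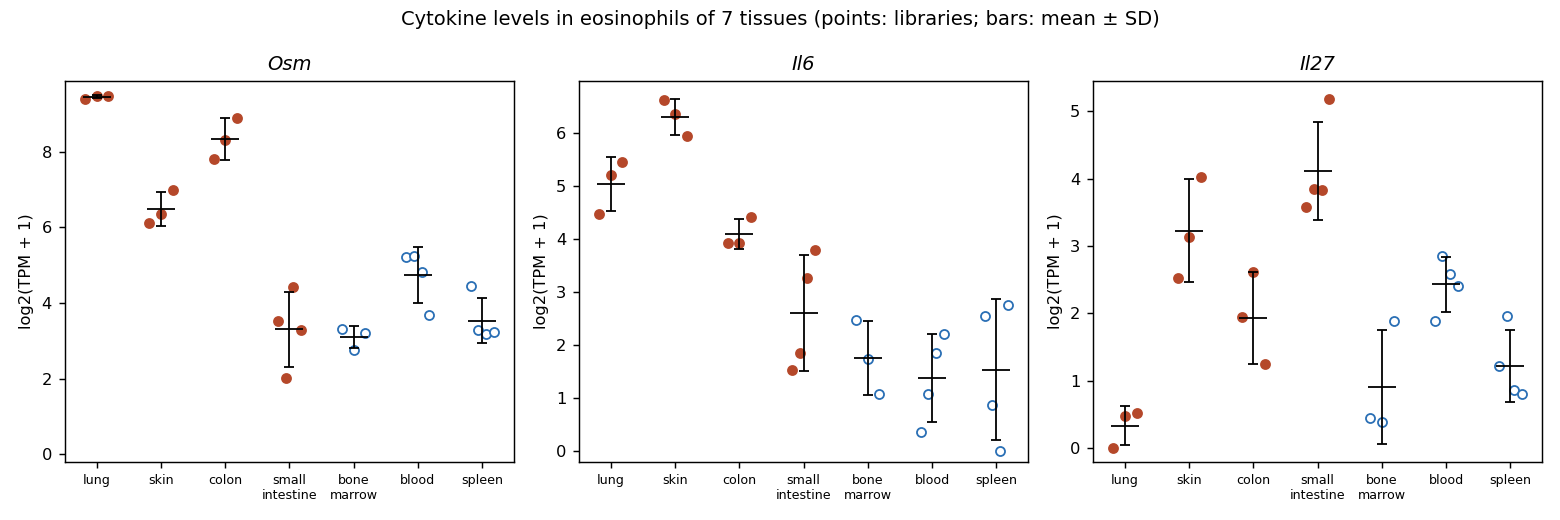
Levels of Osm, Il6 and Il27 as log2(TPM + 1) in each library (points) of the 7 tissues on the horizontal axis, with the mean and SD as bars; filled points are lung, skin, colon and small intestine, open points bone marrow, blood and spleen. Osm stands highest in the 3 lung libraries (672.95 to 709.84 TPM), Il6 in the 3 skin libraries (60.55 to 97.03 TPM), and the mean of Il27 in the 4 small intestine libraries (10.99 to 35.52 TPM).

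Because TPM is corrected for length, the genes can also be set against each other within a library, where the scaling of the library has little part. As log2 of (Il27 TPM + 1) over (Il6 TPM + 1), the difference was above 0 in 4 of 4 small intestine libraries (0.58 to 2.06) and in 4 of 4 blood libraries (0.20 to 1.77). It was below 0 in 3 of 3 lung (-4.92 to -4.47), 3 of 3 skin (-4.09 to -1.91) and 3 of 3 colon libraries (-3.16 to -1.31). Spleen was split, with 2 libraries above 0 and 2 below, and bone marrow had 1 above and 2 below. So the level of Il27 exceeded that of Il6 in every small intestine and blood library, and was under it in every lung, skin and colon library. Osm exceeded Il27 in all libraries of the 6 other tissues, whereas Il27 exceeded Osm in 3 of 4 small intestine libraries.

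**Figure D2:**
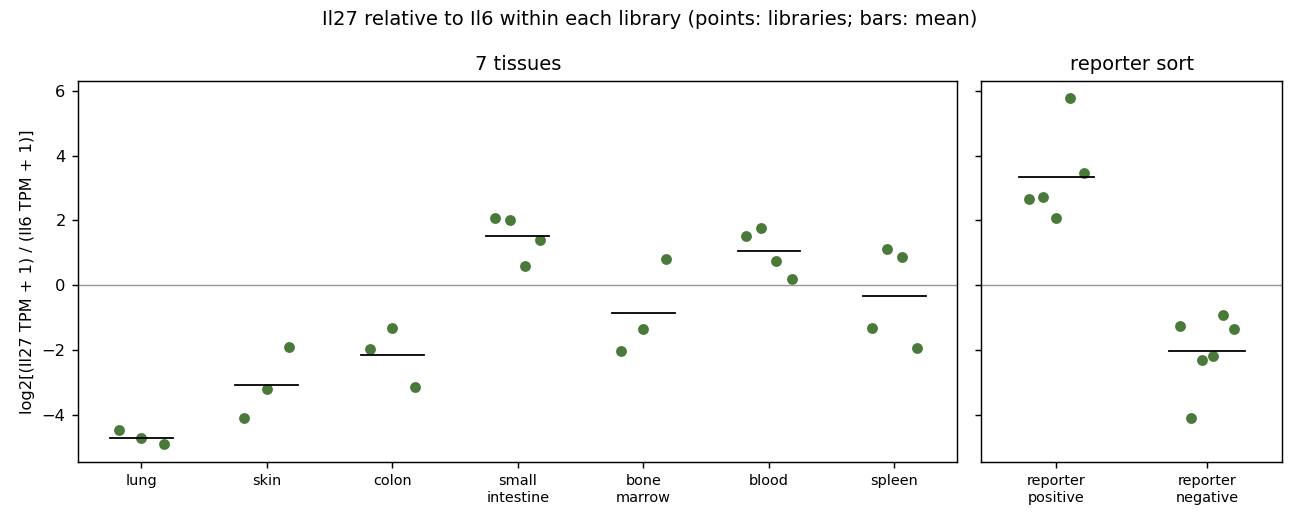
The log2 difference between Il27 and Il6 within each library (points; vertical axis, a value of 0 means equal levels), by tissue on the left and by reporter sort on the right, with group means as bars. All small intestine, blood and reporter-positive libraries lie above 0, and all lung, skin, colon and reporter-negative libraries lie below it.

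The other genes of these pathways asked whether partners, receptors and signalling genes of the 4 cytokines also differed between tissues. Of 118 listed genes other than the 4, 100 were tested in the tissue table with limma. Lists were drawn up with earlier results of these data known. In lung, skin, colon and small intestine against bone marrow, blood and spleen, 67 of the 100 were higher and 13 lower, where 53.4% of all 9806 genes were called, 22.4% higher and 31.1% lower. Their median change was 1.25 relative to the median gene, which stands at 0 by this measure. Small intestine, set against its 6 others, had 48 higher and 17 lower, where 40.8% of all genes were called, 24.7% higher and 16.1% lower (median change 0.44). Over all genes 2422 were higher and 1577 lower there, but 1814 and 2140 when libraries were quantile normalized. Without small intestine replicate 2, 11 were lower.

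In lung, set against its 6 others, 41 were higher and 25 lower, where 52% of all genes were called, 9.62% higher and 42.4% lower (median change 0.72). With libraries scaled by median ratios 51 were higher and 17 lower, and with quantile normalization 50 and 13. Over all genes 943 were higher and 4157 lower in lung, which became 1858 and 2537 with median ratios and 1739 and 1699 with quantiles. Lung libraries also stood apart in the shift of their median gene.

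Among partners and sister ligands, Ebi3 was higher in the mean of lung, skin, colon and small intestine than in that of bone marrow, blood and spleen. The difference was 1.59 (limma adjusted p under 0.05, as for every gene called higher or lower), and lung had no part in it. Its level did not follow that of Il27 everywhere. Ebi3 was at 272 ± 62.3 TPM in skin (SD, n = 3), 238 ± 22.3 TPM in small intestine (SD, n = 4) and 153 ± 18.6 TPM in colon (SD, n = 3). It was at 60 ± 7.63 TPM in lung (SD, n = 3), where Il27 was close to 0. This was near its means of 67.7 TPM in bone marrow, 50.6 TPM in blood and 54.7 TPM in spleen. In lung, set against its 6 others, Ebi3 was called lower (-0.30). Of the other ligands of the family 2 of 6 were tested, and both were called higher in the first comparison and in lung. Clcf1, which encodes a B cell stimulating cytokine, was at 20 ± 5.58 TPM in lung (SD, n = 3). Its means were 16.995 TPM in small intestine, 12.86 TPM in colon and 11.65 TPM in skin. Spleen at 19.2 TPM and blood at 15.9 TPM were above skin and colon, and bone marrow was low at 1.38 TPM. Lung libraries (15.8 to 26.36 TPM) overlapped with those of spleen (11.48 to 29.1 TPM) and blood (13.45 to 18.59 TPM). Lif, leukaemia inhibitory factor, was at 3.14 ± 1.77 TPM in lung (SD, n = 3) and at 0 in all 14 libraries of colon, bone marrow, blood and spleen.

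Few of the listed receptor chains could be followed, and a missing row gives no level, since the authors' filter on genes is not stated. Of 11 listed, 5 were tested, and 1 was higher in the first comparison, Lifr, the receptor chain of leukaemia inhibitory factor. Small intestine, set against its 6 others, had lower Il12rb2, a chain of the interleukin 12 receptor (-2.63), and Il27ra, the specific chain of the interleukin 27 receptor (-1.05). Il27ra averaged 5 ± 3.38 TPM in skin (SD, n = 3) and was listed at 0 in 3 of 4 small intestine libraries. It was near the floor in the other tissues too, at 1.33 TPM in lung, 1.06 TPM in bone marrow, 0.72 TPM in blood, 0.61 TPM in colon and 0.43 TPM in spleen. Il6ra, the specific chain of the interleukin 6 receptor, averaged 4.42 ± 3.67 TPM in skin (SD, n = 3) and 0.133 ± 0.153 TPM in small intestine (SD, n = 4), and was not called in any of the 3 comparisons.

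Genes that signal, respond and feed back were higher in larger numbers. In the first comparison 8 of 16 kinases, STATs and inhibitors were higher and 4 lower, led by Socs2 and Cish, inhibitors that growth factor cytokines induce (5.14 and 3.15), and by Socs3, the feedback inhibitor of interleukin 6 signalling (1.70). Socs3 was at 19.8 ± 6.90 TPM in colon, 18.3 ± 3.72 TPM in skin and 11.1 ± 2.71 TPM in lung (SD, n = 3 each) and at 1.75 ± 1.49 TPM in small intestine (SD, n = 4), where it was lower than in the mean of its 6 others (-1.77). Of 15 STAT3 target genes 11 were higher and 2 lower, led by Bcl3, an NF-kappaB cofactor (4.52), the growth factor Vegfa (3.32) and the kinase Pim1 (3.18). Of 16 tested genes listed as inducers of these cytokines 13 were higher and 2 lower. The list also held genes that can restrain transcription, Atf3 and the NF-kappaB inhibitor Nfkbia among them, so this is no count of activators. Nfkbiz, an NF-kappaB cofactor needed for Il6 induction, rose by 7.16, Atf3 by 6.01, and the subunits Relb and Nfkb2 by 4.68 and 4.23.

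Of 13 regulators of message decay 6 were higher and 2 lower, a called share near the 53.4% of all genes. By direction they differed from all genes, of which 22.4% were higher and 31.1% lower. Those higher included Zc3h12a, an enzyme that cleaves the Il6 message (3.28), and Zfp36, which binds AU-rich elements (1.99). Receptors of eosinophil growth factors had 4 of 7 higher and 3 lower, and other cytokines 9 of 13 higher and 0 lower, among them Il1b, Il1a and Tnf (8.75, 7.52 and 5.55). All 18 immediate early and dissociation genes were higher too by these means (median change 3.42), but not each of them in every tissue. Dusp1 averaged 3342 TPM in blood, against 4433 TPM in colon, 2375 TPM in lung, 1794 TPM in skin and 1158 TPM in small intestine. Nr4a1 was at 9.98 TPM in blood and higher in these 4 tissues, at 776, 818, 38.8 and 547 TPM. Taking cells out of solid tissue can induce such genes, and their part in the levels of Osm, Il6 and Il27 was not tested. Of these 18, 15 were higher and 1 lower in small intestine set against its 6 others, and 10 were higher and 5 lower in lung set against its own.

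The reporter sort asked how Nmur1+ and Nmur1- eosinophils of the small intestine differ. Il6 and Il23a were lower, and Il27 higher, in Nmur1+ than in Nmur1- cells, with no overlap between the groups for any of the 3. Libraries of the groups did not overlap in 3 of the 4 genes, and in 9.36% of all 7982 genes tested. The 4 were chosen with earlier results known, in which their values in this sort may have had a part. Their differences are therefore descriptions with no test, and nothing is read from the count. The median gene was 0.22 higher in Nmur1+ libraries, and changes below are given relative to it, while the limma tests of other genes compare the change before this shift with 0. Over all genes 733 were higher and 419 lower, which became 362 and 592 with median ratios and 428 and 529 with quantiles.

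Nmur1, which checks the sort, was between 25.9 and 53.1 TPM in the 5 Nmur1+ libraries and between 0 and 15.6 TPM in the 6 Nmur1- libraries, a log2 change of 2.43 (limma adjusted p = 0.00258).

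Il6 was at 6.21, 2.02, 7.16, 0 and 2.02 TPM in the Nmur1+ libraries. In the 6 Nmur1- libraries its lowest, median and highest levels were 15.6, 20.9 and 50.3 TPM. The highest Nmur1+ library was thus under the lowest Nmur1- library. The log2 change was -2.94 ± 0.47 (SE). Before the shift it was -2.73, which became -1.77 with a pseudocount of 5.

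Il23a, whose product forms interleukin 23, a cytokine that maintains T helper 17 cells, followed Il6. Il23a (ENSMUSG00000025383.2, chr10:128296139-128298752, minus strand, protein coding) was at 5, 0.97, 1.15, 0 and 2.76 TPM in Nmur1+ libraries. The 6 Nmur1- libraries ranged between 5.85 and 26.8 TPM, with a median of 17.3 TPM, so the groups lay apart by less than 1 TPM at their nearest libraries. The log2 change was -2.89 ± 0.45 (SE). Before the shift it was -2.67, which became -1.58 with a pseudocount of 5. Il12b, the other chain of interleukin 23, was not analysed here.

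Il27 went the other way. It was at 44.87, 18.91, 32.98, 53.41 and 32.3 TPM in Nmur1+ libraries, and at 5.93, 0, 9.34, 3.96, 10.51 and 7.65 TPM in Nmur1- libraries. The lowest Nmur1+ library was above the highest Nmur1- library. The log2 change was 2.41 ± 0.51 (SE). The macrophage marker C1qb moved the same way, at 22.1 to 37 TPM in Nmur1+ libraries and 8.3 to 19.2 TPM in Nmur1- libraries. Of the same list C1qa and Cd14 also averaged higher in Nmur1+ libraries, at 20.4 against 10.4 and 28.2 against 16.3 TPM. Csf1r averaged lower in Nmur1+ libraries, at 23.7 against 28.9 TPM. The part of macrophages in the level of Il27 was not tested. Ebi3, the partner of Il27, did not follow and was at 168 ± 32.4 TPM in Nmur1+ cells (SD, n = 5) and 244 ± 82.3 TPM in Nmur1- cells (SD, n = 6), a change of -0.72 that did not pass (limma adjusted p = 0.102).

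Osm depended on 1 library and on the pairing of libraries. It was at 88.48, 3.3, 22.73, 8.74 and 14.41 TPM in Nmur1+ libraries, and its lowest, median and highest levels in Nmur1- libraries were 16.9, 43.0 and 85.0 TPM. The highest value of all thus belonged to Nmur1+ replicate 1, and the other 4 Nmur1+ libraries reached 22.73 TPM at most. The log2 change was -1.48 ± 0.59 (SE), or -1.26 before the shift, and the groups overlapped. Before the shift it became -1.86 without Nmur1+ replicate 1 and -0.77 without Nmur1+ replicate 3. With the library number as a block it was -1.81, in a fit in which replicate 1, with no Nmur1- partner, carries no weight.

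Library numbers 3, 4, 5 and 8 occur in both groups, and libraries with equal numbers deviated together. Within these 4 pairs Osm was lower in the Nmur1+ library in 4 of 4, at 3.3 against 16.93, 22.73 against 66.66, 8.74 against 21.12 and 14.41 against 85.05 TPM. Il6 and Il23a were lower and Il27 was higher in the Nmur1+ library in 4 of 4 pairs each. The log2 difference within pairs ranged between -4.51 and -2.51 for Il6, between -4.46 and -1.80 for Il23a, and between 1.72 and 4.32 for Il27.

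**Figure D3:**
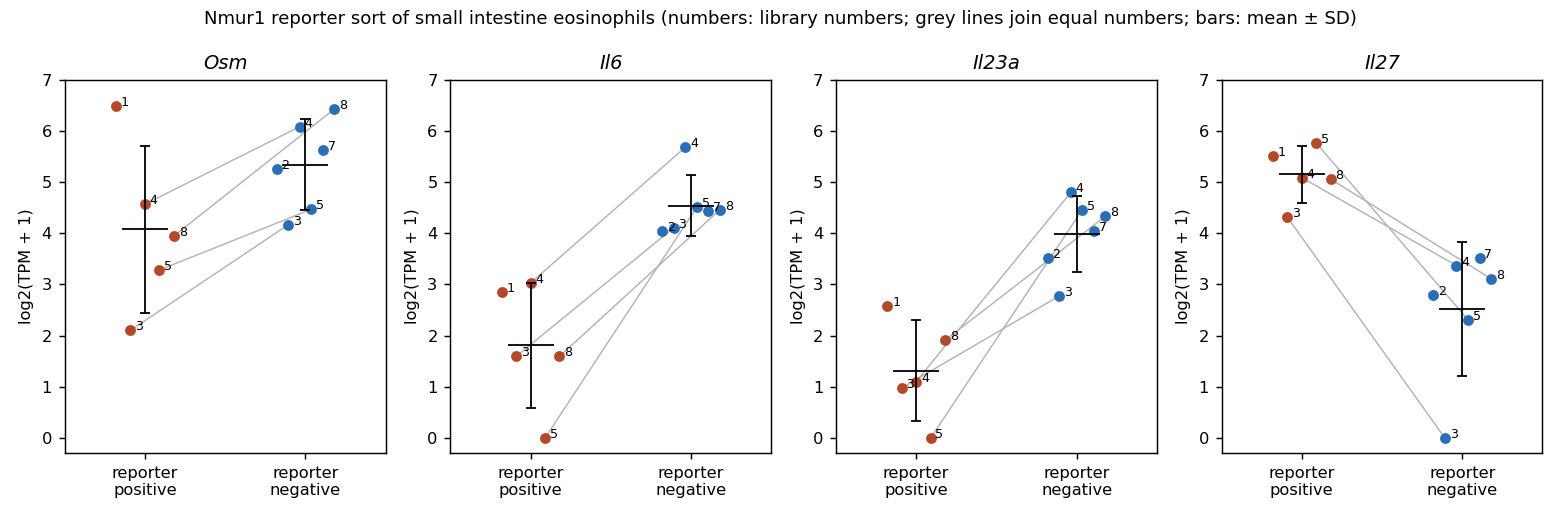
Levels of Osm, Il6, Il23a and Il27 as log2(TPM + 1) in each Nmur1+ (left in each panel) and Nmur1- (right) library, with library numbers beside the points, grey lines between equal numbers, and the mean and SD as bars. Il6 and Il23a lie lower and Il27 higher in every Nmur1+ library than in any Nmur1- library, and for Osm the Nmur1+ replicate 1 at 88.48 TPM lies above all others.

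Set against each other within libraries, Il27 exceeded Il6 in 5 of 5 Nmur1+ libraries (log2 difference 2.06 to 5.77) and was under it in 6 of 6 Nmur1- libraries (-4.11 to -0.92). Il27 likewise exceeded Il23a in 5 of 5 Nmur1+ libraries (2.93 to 5.77) and was under it in 6 of 6 Nmur1- libraries (-2.78 to -0.51). The sign of these differences does not depend on the scaling of a library.

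Of the 118 other pathway genes, 85 were tested in the sorted libraries, of which 13 were higher and 18 lower in Nmur1+ cells (median change -0.16), where 14.4% of all genes were called, 9.18% higher and 5.25% lower. After median-ratio scaling 8 were higher and 20 lower. As in tissues, the lists were drawn up with earlier results of these data known. The counts, and the p-values of genes named from the lists, are therefore no independent test. Of 14 genes listed as inducers, not all of them activators, 6 were lower and 3 higher. Nfkbia, the NF-kappaB inhibitor that NF-kappaB itself induces, was at 551 ± 150 TPM in Nmur1+ cells (SD, n = 5) and 4505 ± 1376 TPM in Nmur1- cells (SD, n = 6), a log2 change of -3.24 (limma adjusted p = 1.62e-07). Nfkbiz was at 200 ± 34.6 TPM in Nmur1+ cells and 749 ± 215 TPM in Nmur1- cells (-2.09, limma adjusted p = 5.6e-06). Relb and Nfkb2 were lower by -1.93 and -1.21, while the AP-1 gene Fos was higher by 1.02. Of the 3 genes of this list that were higher, Atf3 and Irf3 were no longer called with median ratios, nor Irf3 with quantiles.

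Of 13 STAT3 target genes 4 were lower and 2 higher, of which 1, Il4ra, lost its call under both scalings. Myc, a growth regulator, was at 4.37 ± 2.35 TPM in Nmur1+ cells (SD, n = 5) and 65.7 ± 14.5 TPM in Nmur1- cells (SD, n = 6), a change of -3.95 (limma adjusted p = 6.98e-07). Bcl3 was at 11.9 ± 5.71 TPM in Nmur1+ cells and 55.4 ± 23.9 TPM in Nmur1- cells (-2.35). Of 15 kinases, STATs and inhibitors 1 was lower, Cish (-1.41), and 2 were higher, Socs2 (0.71) and Stat4 (1.04), the STAT of interleukin 12 and 23 signalling, at 115 ± 39.7 TPM in Nmur1+ cells and 49.4 ± 19.6 TPM in Nmur1- cells. Socs3 was at 5.27 ± 1.79 TPM in Nmur1+ cells and 7.91 ± 2.83 TPM in Nmur1- cells and did not pass. Receptor chains had 0 of 11 tested here.

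Of 13 decay regulators 2 were called, a share near the 14.4% of all genes. The 1 that was lower was Zc3h12a, at 11 ± 6.00 TPM in Nmur1+ cells (SD, n = 5) and 55.4 ± 16.6 TPM in Nmur1- cells (SD, n = 6), a change of -2.54 (limma adjusted p = 7.93e-05). Arid5a, which stabilises the Il6 message, was the 1 that was higher (0.46), and its call was lost after median-ratio scaling. Of 11 other cytokines 4 were lower and 1 higher, with Tnf at 28.5 ± 14.1 TPM in Nmur1+ cells and 156 ± 64.2 TPM in Nmur1- cells (-2.66, limma adjusted p = 7.68e-05) and Il16, a chemoattractant cytokine, lower by -1.49. Clcf1 did not pass, at 33.5 ± 21.1 TPM in Nmur1+ cells and 14.6 ± 6.86 TPM in Nmur1- cells. Receptors of eosinophil growth factors had 0 of 5 called. Of 18 immediate early genes 6 were higher, led by Nr4a2 (2.30) and Egr2 (2.12), and 2 lower, Ier3 (-2.94) and Jund (-1.25). The call of Jund, at a limma adjusted p of 0.0496, was lost with a pseudocount of 0.1 and without some single libraries.

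**Figure D4:**
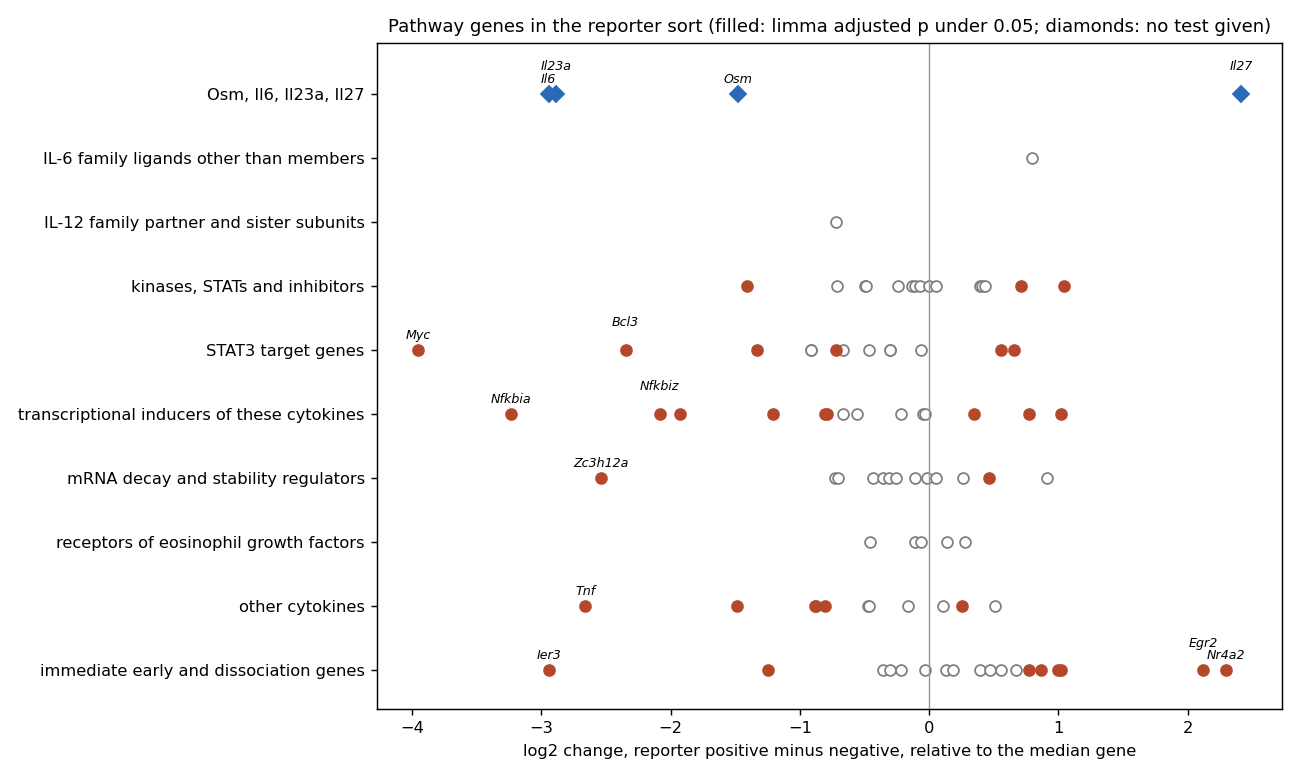
Log2 change of each tested gene, Nmur1+ minus Nmur1- and relative to the median gene (horizontal axis), by list (rows), with filled points for limma adjusted p under 0.05 and diamonds for the 4 cytokines, for which no test is given; genes past 2 in either direction and the 4 cytokines are named. Il6 and Il23a (-2.94 and -2.89) lie on the side of Nfkbia, Tnf, Zc3h12a and Myc, and Il27 (2.41) on that of Egr2 and Nr4a2.

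By the rule for likeness, the 5 genes with the highest Pearson r of log2(TPM + 1) over the 24 tissue libraries, among 7228 other genes, were taken for each cytokine. These r values are descriptions, since libraries of a tissue share their source and the 24 points fall into 7 tissues. For Osm they were Cebpb (0.88), Fbxo11 (0.88), Tpm4 (0.87), Irf2bp2 (0.85) and Rab11a (0.85). Cebpb, which encodes a C/EBP factor, averaged 136 ± 24.5 TPM in lung and 2.46 ± 0.497 TPM in bone marrow (SD, n = 3 each). For Il6 they were Rrad, Adora2b, Elp5, Nfkb1 and Card19 (0.90 to 0.89). Nfkb1, a subunit of NF-kappaB, averaged 412 ± 46.1 TPM in skin and 221 ± 31.8 TPM in lung (SD, n = 3 each), the same leading pair of tissues as Il6. For Il27 they were Dtx2 (0.84), Srsf10 (0.83), Rad9a (0.83), Erbin (0.83) and Dvl2 (0.83). No list held a gene of another.

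Markers of the labelled cells were present, with exceptions. The eosinophil receptors Siglecf and Ccr3 averaged between 119 and 296 TPM and between 310 and 1288 TPM over the 7 tissues. The granule gene Epx averaged 1520 TPM in bone marrow and 114 TPM in spleen. It was near the floor elsewhere, at 1.29 TPM in blood, 1.26 TPM in skin, 1.02 TPM in lung and 0.83 TPM in small intestine. In all 3 colon libraries Epx was listed at 0. Of 12 macrophage and monocyte markers 5 had rows, with sums of 298 to 369 TPM in lung, 233 to 354 TPM in skin, 121 to 145 TPM in colon, 72.8 to 160 TPM in small intestine, 3606 to 4075 TPM in bone marrow, 135 to 183 TPM in blood and 317 to 860 TPM in spleen. The 5 did not move together. In lung Cd14 averaged 80.9 TPM, its highest, but Csf1r averaged 49.4 TPM, C1qa 0.140 TPM and C1qb 0.137 TPM. In skin Csf1r averaged 192 TPM, C1qa 23.6 TPM and C1qb 32.4 TPM, their highest, and Ly6c2 was highest in bone marrow, at 3799 TPM. C1qa and C1qb were listed at 0 in all 4 blood libraries. Of 11 dendritic cell markers 5 had rows, with sums of 55.1 to 111 TPM in lung, 96.8 to 184 TPM in skin, 108 to 387 TPM in colon and 118 to 674 TPM in small intestine. Of 11 neutrophil markers 10 had rows. Outside bone marrow most of their sum was Retnlg, which averaged 70436 TPM in lung, 7364 TPM in skin, 12525 TPM in colon, 6941 TPM in small intestine, 17778 TPM in bone marrow, 61058 TPM in blood and 56426 TPM in spleen. Ly6g, their surface antigen, was listed at 0 in all skin and small intestine libraries. The neutrophil markers S100a8, S100a9 and Elane averaged 16464, 16214 and 7052 TPM in bone marrow, but 7.12, 20.8 and 1.41 TPM in blood. In spleen they averaged 825, 1209 and 23.0 TPM, with S100a8 between 4.04 and 3242 TPM over the spleen libraries. In lung S100a9 averaged 141 TPM, while S100a8 and Elane were at 5.81 and 1.51 TPM.

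In the sorted table the 4 macrophage and monocyte markers with rows summed to 87.1 to 119 TPM in Nmur1+ libraries and 43.9 to 111 TPM in Nmur1- libraries. The 4 dendritic cell markers summed to 401 to 558 TPM in Nmur1+ and 237 to 2431 TPM in Nmur1- libraries. The 5 neutrophil markers summed to 5818 to 9918 TPM in Nmur1+ and 9320 to 12653 TPM in Nmur1- libraries, most of it Retnlg. Among them C1qa averaged 20.4 TPM in Nmur1+ and 10.4 TPM in Nmur1- libraries, Cd14 28.2 TPM in Nmur1+ and 16.3 TPM in Nmur1- libraries, and Csf1r 23.7 TPM in Nmur1+ and 28.9 TPM in Nmur1- libraries. Cxcr2, a chemokine receptor of the neutrophil list, averaged 29.1 TPM in Nmur1+ and 6.45 TPM in Nmur1- libraries, and Retnlg 7166 TPM in Nmur1+ and 10874 TPM in Nmur1- libraries. In the limma fit C1qb and Cxcr2 were called higher and Retnlg lower. None of these markers was at 0 in all libraries of a group. The 9 eosinophil markers with rows did not move together. The granule gene Prg2 was lower in Nmur1+ cells (-2.13), and Ccr3, Alox15, Cebpe, Gata1 and Ear6 also averaged lower there. Siglecf averaged 242 TPM in Nmur1+ and 161 TPM in Nmur1- libraries, Adgre1 441 and 380 TPM, and Il5ra 36.0 and 34.7 TPM. The part of cells other than eosinophils in the levels of the 4 cytokines was not tested.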

How the data were processed

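The authors deposited 2 tables of TPM, transcript abundance corrected for length and scaled to a fixed total per library, with 1 column per library. The tools named, per the submitters' processing notes, are RSEM 1.3.3, STAR 2.7.5c and cutadapt 2.10, and the build is mm10. Neither the annotation nor the authors' filter on genes is stated in these sources. TPM keeps no depth, so the depth of each library is unknown and no counting interval is given. Columns summed to 796048 to 890768 in the tissue and 799585 to 863816 in the sorted table, with 7770 to 9325 and 7740 to 7928 genes at 1 TPM or more per library. A single-cell sample was not analysed here. Each table was fitted on its own, without comparing levels between them.

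Genes with at least 1 TPM in at least 3 tissue (9806 genes) or 5 sorted libraries (7982 genes) were tested by limma 3.58.1 (R 4.3.3) on the log2(TPM + 1) scale (lmFit, eBayes with trend), two-sided, with Benjamini-Hochberg adjustment over all genes and calls at an adjusted p under 0.05. A change on this scale understates that of low genes. The script was tested on simulated data. The 4 genes and 10 gene lists, and 9 marker lists, were chosen with earlier results of these data known. The rule for names took up to 4 called genes per list with the largest change, or the 2 most abundant where none was called; Il6ra, Fos, Prg2, Zfp36 and Socs3 in the sort were named after their values were seen. Tissue contrasts used unweighted tissue means. No test is given for the 4 genes themselves in tissues or, although one had been planned, in the sort, since they may have been chosen on these values. In the sorted table, deviations from the group mean correlated in all 4 pairs of equal library number (r 0.164 to 0.225, against -0.175 to 0.194 in 26 other pairs, 3 of them over 0.1), so by a rule that asks for r over 0.1 in every pair the numbers were taken to pair libraries. This rests on the data and not on the labels, and 1 of the other pairs had a higher r than 3 of these 4. In tissues 62 such pairs had r between -0.045 and 0.088. Alternatives were pseudocounts of 0.1 and 5, 2 scalings, no filter, robust eBayes, the block and leaving out each library.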

Additional observations from a re-analysis of the deposited data

Results flagged for a closer look

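In groups of 4 to 6 libraries, 11 of 82 groups checked held 1 library set far apart from the nearest other. Chance gives about 1 in 20 for values that follow a normal distribution. Levels in TPM cannot fall below 0 and need not follow one, so nothing is read from the excess. Osm stood at 88.48 TPM in Nmur1+ replicate 1, with the next library at 22.73 TPM, and at 20.64 TPM in spleen replicate 1, with the next at 8.73 TPM. Il6 stood at 50.28 TPM in Nmur1- replicate 4 (next 21.74 TPM), and Il27 at 35.52 TPM in small intestine replicate 4 (next 13.42 TPM). Among the other genes the libraries set apart were Ebi3 in blood replicate 2 (71.76 TPM), Stat4 in blood replicate 3 (20.49 TPM), Tnf in small intestine replicate 3 (91.12 TPM), Bcl3 in small intestine replicate 1 (5.33 TPM, the lowest), Lif in small intestine replicate 4 (0.11 TPM, the others at 0), Nmur1 in spleen replicate 3 (0.65 TPM, the others at 0) and Nfkb1 in Nmur1- replicate 3 (248.47 TPM). No cause was tested.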

How the results depend on the processing

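In the sort, Il6, Il23a and Il27 kept their direction under all 8 other settings and without each of the 11 libraries in turn. Their log2 changes, here before the shift of the median gene, ranged between -3.03 and -2.28 for Il6, between -2.99 and -2.34 for Il23a and between 2.13 and 2.84 for Il27 over libraries left out. Osm changed by -1.81 with the replicate block, also with shared numbers only, and ranged between -1.86 and -0.77 over libraries left out. The block gave -3.13 for Il6, -3.09 for Il23a and 2.86 for Il27, ended the call of Rela among the pathway genes called, and gave 19 pathway genes higher and 18 lower. Median-ratio scaling gave 8 higher; leaving out a library gave 9 to 16 higher and 13 to 17 lower.

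In tissues, differences of Osm, Il6 and Il27 kept their sign throughout. A pseudocount of 5 moved Il6 between lung, skin, colon and small intestine and the other 3 tissues to 1.99. Pseudocounts of 0.1 and 5 moved Il27 in small intestine to 3.18 and 1.49 and in lung to -3.56 and -0.89, and quantile normalization moved it in lung to -1.13 and the lower pathway genes there to 13; other causes were not tested. Leaving out a library gave 2.98 to 3.21, 2.78 to 3.08 and 0.78 to 1.05 for Osm, Il6 and Il27 in the first comparison, -3.00 to -2.20, -1.14 to -0.38 and 2.08 to 2.62 in small intestine, and 4.46 to 4.59, 1.89 to 2.38 and -2.07 to -1.81 in lung. Pathway counts then were 66 to 68 higher and 12 to 14 lower, 43 to 49 and 11 to 19 (11 without small intestine replicate 2), and 36 to 43 and 21 to 27. The replicate block, with numbers that did not pair tissue libraries, gave 68 higher and 13 lower, 48 and 17, and 41 and 26. With depth unknown, levels near 1 TPM carry little weight.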
